A study of Mus musculus with 6 samples.

Results

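Emp1, Ptx3, Thbs1, Plk2, Tnc, Has1 and Hbegf, 7 genes tied to tissue injury and repair, were followed in inguinal white adipose tissue (IngWAT) of SAKI mice and WT mice. They were matched by gene name and are 7 of the 34745 genes in the count tables, and all 7 were among the 15400 genes with enough counts to be tested. Emp1, Ptx3, Thbs1 and Plk2 were selected on their measured values, as genes that lay lower in SAKI mice in these same libraries, so their difference between the groups is given as a description with no test. Tnc, Has1 and Hbegf were added as known genes of injured stroma, and for them the test across all genes is reported. Of the added genes, Tnc did not lie lower with Emp1 in the means of the groups, and Has1 and Hbegf had lower means in SAKI mice but overlapped between the groups and did not pass the test.

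The SAKI group had 3 male mice carrying an LSL-Slc35d3 transgene together with Cre under the adiponectin promoter, which is active in adipocytes, and the WT group had 3 male mice with the Slc35d3 alleles but without Cre. Cre itself was therefore also present in the SAKI group alone. Normal chow with 10 kcal% fat was given to all 6 mice for 10 weeks, starting at an age of 6 weeks, and the labels also record PBS perfusion. Each RNA-seq library came from 1 mouse and held 15354161 to 18787036 counts. Levels are given as CPM, a gene's share of all counts times a fixed factor, after TMM scaling for library size and composition.

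The genotype labels held, since Slc35d3 itself rose to 745 to 793 CPM in SAKI mice, against 73.3 to 82.1 CPM in WT mice (log2 fold change 3.33, SE 0.12, edgeR adjusted p = 0.000244). The WT libraries were unlike one another. Along principal component 1, which took 49.6% of the variance, SAKI libraries lay at -24.1 to -20.0, WT 2 beside them at -20.1, and WT 1 and WT 3 apart at 36.1 and 51.6. Mitochondrial genes likewise took 13.1% to 15.9% of the counts in SAKI libraries, 13.8% in WT 2, 7.31% in WT 1 and 8.79% in WT 3. The 7 genes are therefore given library by library and also for the SAKI mice against WT 2 alone, as are the counts of the gene lists. Adipocyte markers identified the tissue in every library, with summed levels of 22420 to 25070 CPM in SAKI mice, against 24060 to 33810 CPM in WT mice. Of these 12 markers, 12 had a log2 fold change below 0, with a median of -0.39, and 6 (50%) lay lower in SAKI mice without overlap, where 12.4% of all genes did. Their part in the values of the 7 genes was not tested. In bulk tissue, fewer cells of a type and less RNA per cell cannot be told apart.

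Injured connective tissue makes a provisional matrix, in which hyaluronan, thrombospondins and tenascins give migrating cells a scaffold, and it releases growth factors and chemokines. Many of the genes involved are switched on quickly by serum, mechanical strain or inflammatory cytokines through AP-1, CREB, SRF and NF-kB. Emp1 encodes a small membrane protein of the PMP22 family that spans the membrane several times. Ptx3 encodes the long pentraxin, a secreted protein of innate immunity that helps cross-link hyaluronan. Thbs1 encodes thrombospondin 1, a matricellular glycoprotein that binds CD47 and CD36 and can activate latent TGF-beta. Plk2 encodes a polo-like kinase that is induced by serum and by p53. Tnc encodes the matrix glycoprotein tenascin C, Has1 an enzyme that makes hyaluronan, and Hbegf a ligand of the EGF receptor that is shed from the cell surface.

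The upstream sequences of the genes were searched because AP-1, CREB, SRF and NF-kB are known for this kind of induction. RefSeq start sites of GRCm38.p6 were available for 5 of the 7 genes, Emp1, Ptx3, Plk2, Tnc and Has1, and the 250 bases before each start were read on both strands for AP-1 (TGANTCA), CRE (TGACGTCA), TEAD (GGAATG), CArG box and NF-kB motifs. The first of these stood in 6.75% of 32851 windows of this length over all genes, CRE in 1.55%, TEAD in 12.6%, the CArG box in 1.47% and NF-kB in 7.25%. The share of windows with a match to any of these motifs was not counted. A match here describes letters and is not a measured binding site. The windows of Emp1, Plk2 and Has1 held a match and are printed 5′ to 3′ on the strand of the gene, without bases that GENCODE places in an exon of the gene, with the motif in capitals.
Emp1, chr6:135362708-135362903, plus strand: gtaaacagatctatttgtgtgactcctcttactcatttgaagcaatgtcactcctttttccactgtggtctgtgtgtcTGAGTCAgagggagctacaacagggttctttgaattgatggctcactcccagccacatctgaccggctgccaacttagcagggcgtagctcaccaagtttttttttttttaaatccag
Plk2, chr13:110394794-110395043, plus strand: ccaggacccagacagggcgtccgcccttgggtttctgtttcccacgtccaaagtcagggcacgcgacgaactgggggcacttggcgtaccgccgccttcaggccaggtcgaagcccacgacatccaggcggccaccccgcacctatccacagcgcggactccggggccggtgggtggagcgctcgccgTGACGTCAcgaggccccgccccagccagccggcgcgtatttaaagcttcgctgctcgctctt
Has1, chr17:17855206-17855438, minus strand: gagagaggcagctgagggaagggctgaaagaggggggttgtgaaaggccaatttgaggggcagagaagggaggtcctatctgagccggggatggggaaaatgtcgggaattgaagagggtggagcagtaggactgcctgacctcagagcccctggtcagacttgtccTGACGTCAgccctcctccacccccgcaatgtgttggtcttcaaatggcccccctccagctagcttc

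In Emp1 the capitals mark an AP-1 match 145 to 139 bases before the RefSeq start, in an intron of an annotated transcript that begins further upstream, and another AP-1 match lay 25 to 19 bases before the start, within an exon of that transcript. In Plk2 and Has1 they mark a full CRE, 62 to 55 bases before the start in Plk2 and 83 to 76 bases before it in Has1. The windows of Ptx3 and Tnc held none of the 5 motifs.

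Emp1, which GRCm38 places on the plus strand of chromosome 6 from 135362545 to 135383173, was at 27.7, 38.0 and 40.4 CPM in SAKI mice, against 443, 212 and 582 CPM in WT mice. The groups were far apart: the lowest WT mouse, WT 2, was at 5.99 times the SAKI mean, WT 1 at 12.5 times and WT 3 at 16.4 times. The means were 35.4 ± 6.76 CPM in SAKI mice and 412 ± 187 CPM in WT mice (SD, n = 3 each), and the log2 fold change was -3.54 (SE 0.39), or 0.0859 of the WT level. By log2 fold change Emp1 stood at place 7 of the 15400 genes, counted from the lowest. Against WT 2 alone its log2 fold change was -2.59. Counts were ample, at 425 to 782 in SAKI libraries and 3267 to 8886 in WT libraries. The nearest tested genes on chromosome 6 had other values. On one side Dynlt1-ps1, 12.8 kb away, had a log2 fold change of 0.40, Fam234b (117.6 kb) of 0.09 and Hebp1 (164.5 kb) of -0.47. On the other side, 1123 to 1425 kb away, Atf7ip was at 0.45, Plbd1 at 0.12 and H2afj at -0.80. None of these 6 passed the test.

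Ptx3, on chromosome 3 from 66219910 to 66225805, was at 1.43, 1.04 and 2.43 CPM in SAKI mice, against 12.2, 9.40 and 52.8 CPM in WT mice. The groups were again apart, but WT 3 alone held most of the WT signal, at 32.3 times the SAKI mean, where WT 1 stood at 7.44 times and WT 2 at 5.76 times. Mean levels were 1.63 ± 0.718 CPM in SAKI mice and 24.8 ± 24.3 CPM in WT mice (SD, n = 3 each), with a log2 fold change of -3.90 (SE 0.77), at place 2 of all genes from the lowest. This value depended on WT 3: without it the log2 fold change was -2.70, and against WT 2 alone it was -2.51. SAKI libraries held 22, 16 and 47 counts of Ptx3, with exact 95% Poisson intervals for counting error of 13.8 to 33.3, 9.15 to 26.0 and 34.5 to 62.5. WT libraries held 198, 145 and 806 counts.

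Thbs1, on chromosome 2 from 118111876 to 118127133, was at 60.0, 55.2 and 65.3 CPM in SAKI mice, against 372, 110 and 470 CPM in WT mice. WT 2 lay much nearer to the SAKI mice than the other WT mice did, at 1.82 times their mean, with WT 1 at 6.18 times and WT 3 at 7.82 times. The mean was 60.2 ± 5.03 CPM in SAKI mice and 317 ± 186 CPM in WT mice (SD, n = 3 each), and the log2 fold change was -2.40 (SE 0.48). Against WT 2 alone this became -0.88.

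Plk2, on chromosome 13 from 110395044 to 110400844, was at 22.8, 22.7 and 21.6 CPM in SAKI mice, against 49.8, 41.0 and 60.5 CPM in WT mice. Of the picked genes it had the smallest difference and the narrowest spread in either group. The SAKI mice averaged 22.4 ± 0.645 CPM and the WT mice 50.4 ± 9.74 CPM (SD, n = 3 each), and the log2 fold change was -1.17 (SE 0.16). WT 2 stood at 1.84 times the SAKI mean. Against WT 2 alone the log2 fold change was -0.89.

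**Figure D1:**
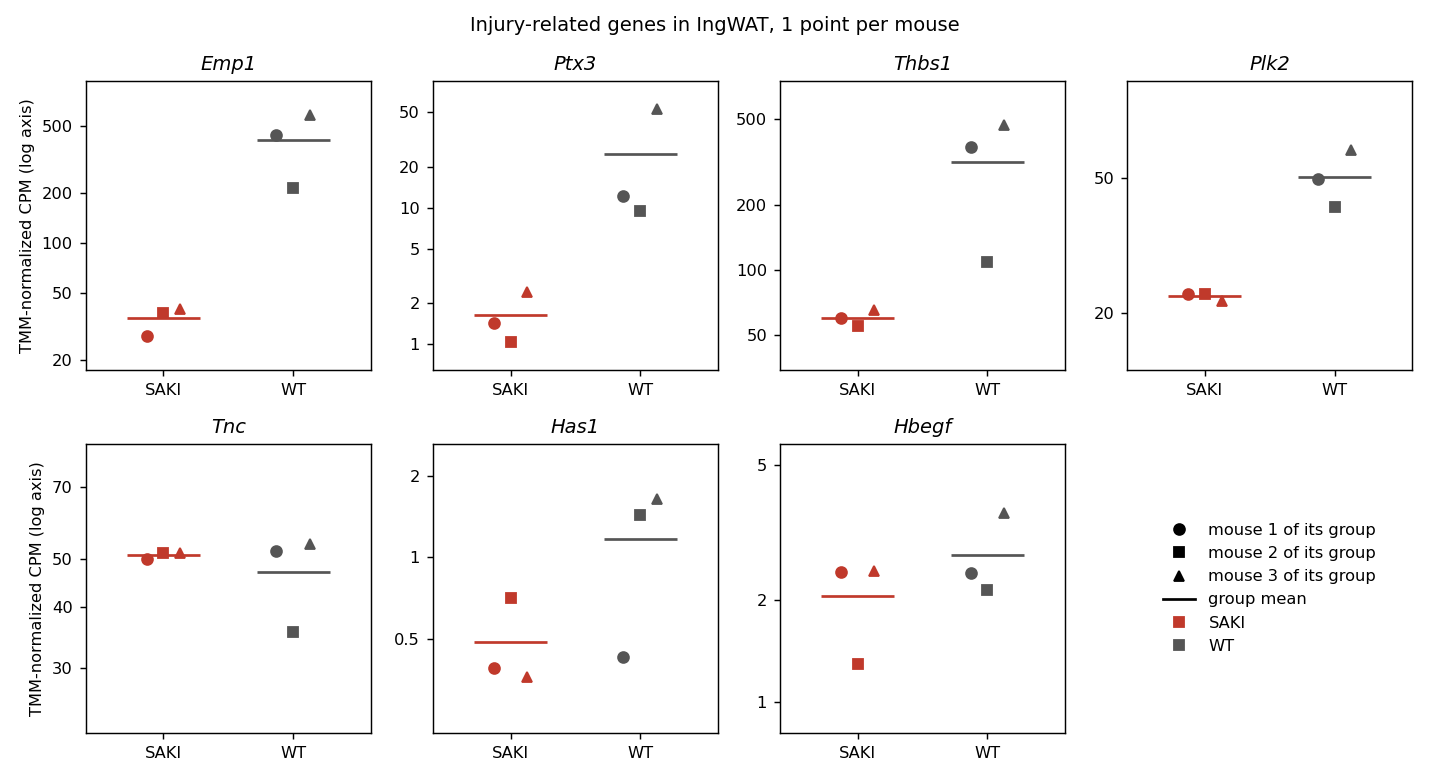
TMM-normalized CPM (log axis) of the 7 genes in IngWAT, 1 point per mouse, with SAKI mice in red to the left of WT mice in grey, a symbol for each mouse number and a line at the group mean. Emp1, Ptx3, Thbs1 and Plk2, picked for this pattern, do not overlap between the groups (Emp1 27.7 to 40.4 CPM in SAKI mice, 212 to 582 CPM in WT mice), whereas Tnc, Has1 and Hbegf do, and WT 3, the grey triangle, is the highest library for all 7 genes.

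The 3 added genes were not among the genes that passed the test: 0 of 3 were called, where 0.0325% of all genes were (5 of 15400 at an adjusted p under 0.05 by the quasi-likelihood test of edgeR). An unadjusted p under 0.05 was found for 0 of 3, and for 18.4% of all genes. DESeq2, which called 4.56% of the genes it tested, and limma-voom, which called 0.0455%, called none of the 3 either. For the picked genes, the 4 of 4 with no overlap between the groups follow from how they were picked, and 12.4% of all genes lay lower in SAKI mice without overlap. Of the added genes 0 of 3 did.

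Tnc, on the minus strand of chromosome 4 from 63959785 to 64047015, was at 50.1, 51.4 and 51.4 CPM in SAKI mice, against 51.9, 35.5 and 53.5 CPM in WT mice. WT 2 was the lowest, and the other 5 mice lay between 50.1 and 53.5 CPM. Tnc averaged 50.9 ± 0.754 CPM in SAKI mice and 47.0 ± 9.98 CPM in WT mice (SD, n = 3 each), and the log2 fold change was 0.12 (SE 0.16, 95% interval -0.27 to 0.50, adjusted p = 0.722 from edgeR). Leaving out WT 2 turned the sign, with a log2 fold change of -0.046, while against WT 2 alone it was 0.51. Tnc thus lay lowest in the same WT library in which Thbs1, Emp1, Ptx3 and Plk2 came nearest to the SAKI mice.

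Has1, on the minus strand of chromosome 17 from 17843328 to 17855188, was near the lower limit of detection. SAKI libraries held 6, 11 and 7 counts and WT libraries 7, 22 and 25 counts, so that exact 95% Poisson intervals ran from 5.49 to 19.7 in SAKI 2 and from 2.81 to 14.4 in WT 1. In CPM these were 0.391, 0.711 and 0.362 in SAKI mice, against 0.430, 1.43 and 1.64 in WT mice, with WT 1 inside the range of the SAKI mice. The log2 fold change was -1.25 (SE 0.57, 95% interval -2.59 to 0.09, adjusted p = 0.292 from edgeR). The interval includes 0, and it also includes the log2 fold change of Plk2. Against WT 2 alone the log2 fold change of Has1 was -1.56.

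Hbegf, on the minus strand of chromosome 18 from 36504929 to 36515805, was at 2.41, 1.29 and 2.43 CPM in SAKI mice, against 2.39, 2.14 and 3.60 CPM in WT mice. The lowest mouse was SAKI 2 and the highest WT 3, and the other mice lay between 2.14 and 2.43 CPM. The log2 fold change was -0.40 (SE 0.35, 95% interval -1.23 to 0.43, adjusted p = 0.558 from edgeR), from 37, 20 and 47 counts in SAKI libraries and 39, 33 and 55 counts in WT libraries. Against WT 2 alone it was -0.07.

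**Figure D2:**
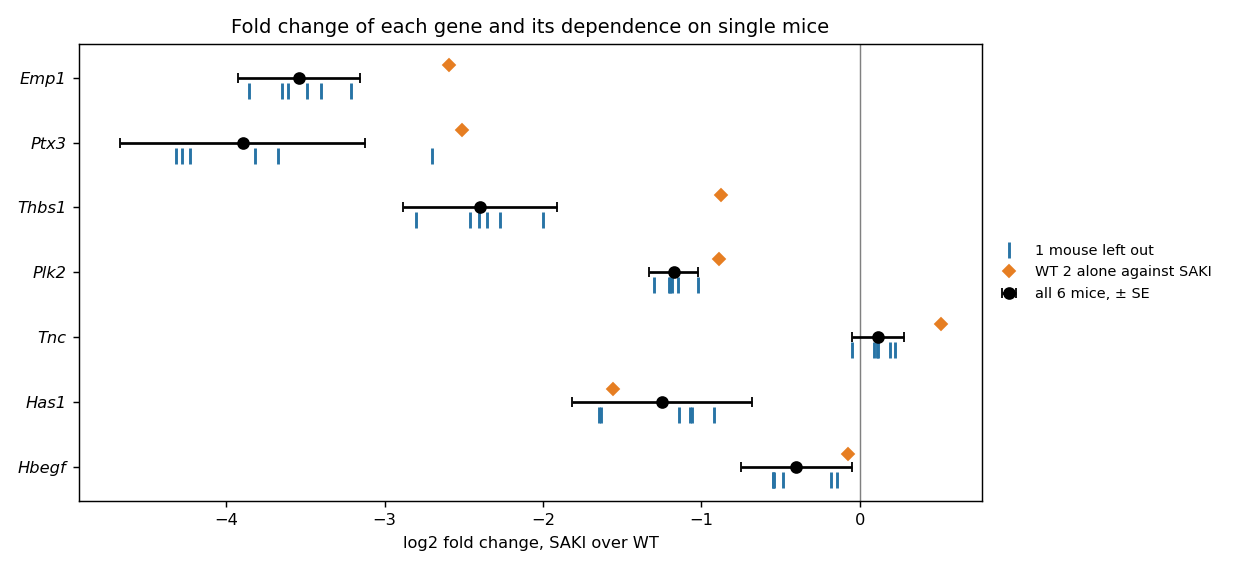
Log2 fold change, SAKI over WT, of the 7 genes from edgeR: black points with bars of 1 SE use all 6 mice, blue ticks leave out 1 mouse at a time, and orange diamonds compare the SAKI mice with WT 2 alone. Emp1 stays between -3.85 and -3.21 with any 1 mouse left out, Ptx3 moves to -2.70 without WT 3, Thbs1 moves to -0.88 against WT 2 alone, and the ticks of Tnc lie on both sides of 0, from -0.046 to 0.22.

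The SAKI mice were closer to one another than the WT mice for 6 of the 7 genes. The coefficient of variation of Emp1 was 19.1% in SAKI mice and 45.3% in WT mice, that of Thbs1 8.37% in SAKI mice and 58.7% in WT mice, and that of Ptx3 44.0% in SAKI mice and 98.0% in WT mice. Hbegf was the exception, with 31.8% in SAKI mice and 28.8% in WT mice. How many of all genes varied less among the SAKI mice was not counted. The WT libraries were also further apart than the SAKI libraries along principal component 1. WT 3 was the highest of the 6 libraries for all 7 genes, and WT 1 and WT 2 were among the highest 3 for 5 genes each. For Emp1, Ptx3, Thbs1 and Plk2 the WT libraries are the highest 3 because of how these genes were picked. Among the added genes, WT 1 was in the highest 3 only for Tnc and WT 2 only for Has1.

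Per gene length, in FPKM as deposited, the order of the genes differed between the groups. In SAKI mice Thbs1 averaged 9.32 FPKM, Plk2 8.03, Tnc 6.47, Emp1 5.60, Hbegf 0.868, Ptx3 0.536 and Has1 0.235, where the ranges of Tnc and Emp1, of Hbegf and Ptx3, and of Ptx3 and Has1 overlapped. In WT mice Emp1 came first with 64.1 FPKM, followed by Thbs1 with 48.5, Plk2 with 17.8, Ptx3 with 7.82, Tnc with 5.89, Hbegf with 1.13 and Has1 with 0.542. There the ranges of neighbours among the first 5 overlapped, and Ptx3 was above Tnc in 1 of 3 WT mice. Despite overlapping ranges, Tnc was above Emp1 in 3 of 3 SAKI mice and Emp1 above Thbs1 in 3 of 3 WT mice. Emp1 thus stood at place 4 of the 7 genes in SAKI mice and at place 1 in WT mice. Since Emp1 was picked as lower in SAKI mice, this change of place follows in part from the pick.

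The genes with the profile most like that of Emp1 over the 6 libraries were ranked by the root mean square difference of log2(CPM + 0.5), centred on each gene's mean, among 13470 tested genes with a mean of at least 1 CPM. A small value means that a gene differed between libraries by the same steps as Emp1. Akap2, which encodes an anchor of protein kinase A, was nearest at 0.27, followed by Tnfrsf12a, the receptor of the cytokine TWEAK, at 0.56, Ptx3 at 0.57 and Thbs1 at 0.70. Next came the chemokine gene Ccl7 at 0.71, the prostaglandin transporter gene Slco2a1 at 0.81, the AP-1 gene Fosl1 at 0.83, the beta-globin gene Hbb-bs at 0.83, Fjx1 at 0.85 and the matrix metalloproteinase gene Mmp19 at 0.86. Plk2 stood at place 96, Hbegf at 2041 and Tnc at 7366, and Has1 had too low a mean to be ranked. The likeness was measured on the groups for which Emp1 had been picked, so it describes these libraries and tests nothing.

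Akap2 followed Emp1 in WT 2 as well as between the groups, with 18.8, 18.7 and 16.1 CPM in SAKI mice, against 262, 138 and 384 CPM in WT mice. Akap2 overlaps the annotated gene Pakap on the same strand, so reads of these cannot be told apart. Tnfrsf12a was at 3.98, 4.66 and 6.62 CPM in SAKI mice, against 60.4, 10.8 and 69.1 CPM in WT mice. In that gene, as in Thbs1, WT 2 lay between the SAKI mice and the other WT mice. Slco2a1, at 21.8, 20.8 and 20.7 CPM in SAKI mice and 189, 27.8 and 182 CPM in WT mice, was in WT 2 almost at the SAKI level. Fosl1 had 2 counts in each SAKI library, against 21, 43 and 182 counts in WT libraries, so no fold is given for it.

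**Figure D3:**
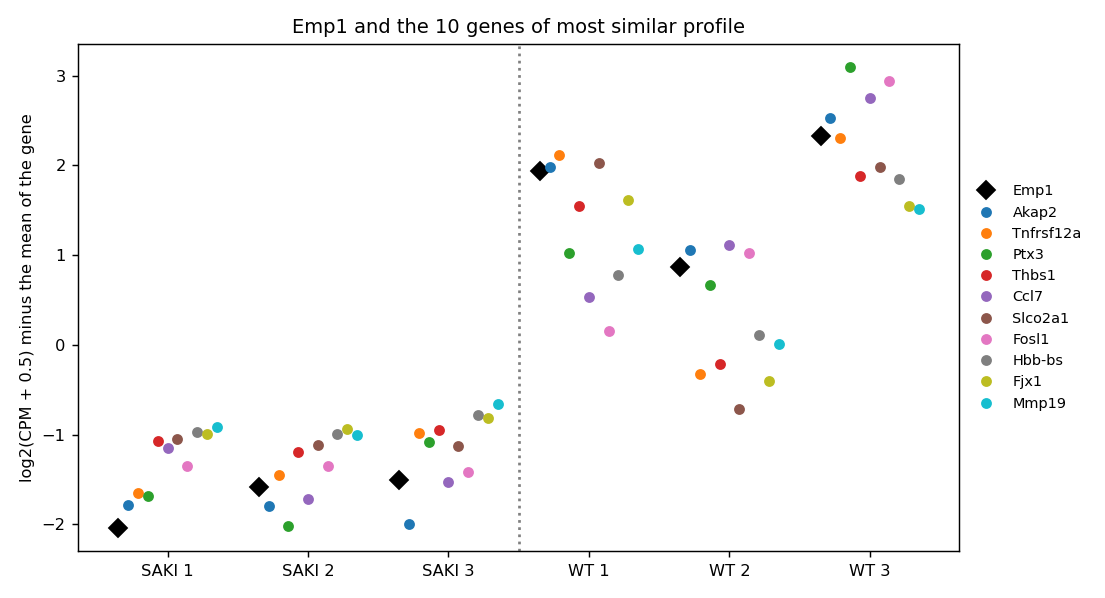
Emp1 (black diamonds) and the 10 genes of most similar profile, as log2(CPM + 0.5) minus each gene's mean over the 6 libraries, with the SAKI libraries left of the dotted line and the WT libraries right of it. All 11 genes are below their mean in the SAKI libraries and above it in WT 1 and WT 3, while in WT 2 Emp1, Akap2, Ptx3, Ccl7 and Fosl1 are clearly above their mean and Tnfrsf12a, Thbs1, Slco2a1 and Fjx1 below it.

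Lists of related genes, with the 7 genes left out, were counted in the same fit, and in none of the 11 lists did a gene pass the test. Over all 15400 genes 50.4% had a log2 fold change below 0, with a median of 0.00 to 2 decimals. This share was not counted for the SAKI mice against WT 2 alone. List counts against WT 2 alone therefore have no background beside them and are a description. Without overlap between the groups, 1911 genes (12.4%) lay lower and 2002 higher in SAKI mice. The family members of Emp1 and Plk2 overlapped between the groups, whereas the few tested pentraxins lay below 0 as Ptx3 did. Of the PMP22 and EMP family, Pmp22, a myelin protein gene, had a log2 fold change of 0.51, Emp2 of -0.16 and Emp3 of 0.15, all overlapping between the groups (adjusted p of 0.398 to 0.662 from edgeR). Of the polo-like kinases, Plk1, a mitotic kinase gene, stood at 0.21, Plk4, which controls centriole duplication, at 0.19 and Plk3 at -0.26, again with overlap. In the pentraxins 3 of 3 tested genes were below 0, and Nptxr, a neuronal pentraxin receptor gene, was at 6.06, 7.05 and 4.50 CPM in SAKI mice, against 9.45, 10.9 and 12.9 CPM in WT mice (log2 fold change -0.92, adjusted p = 0.17 from edgeR). Nptx2, a secreted neuronal pentraxin gene with a mean under 1 CPM that was named after its values were seen, was at 0.391, 0 and 0 CPM in SAKI mice, against 1.29, 0.973 and 2.82 CPM in WT mice. With Nptxr it made 2 of 3 pentraxins (66.7%) that lay lower in SAKI mice without overlap, where 12.4% of all genes did. Against WT 2 alone 3 pentraxins, 2 genes of the PMP22 and EMP family and 0 polo-like kinases were below 0.

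Among matricellular genes, the relatives of Thbs1 and Tnc, 7 of 15 were below 0, with a median log2 fold change of 0.03. This split depended on the WT libraries, with 11 below 0 against WT 2 alone and 5 without WT 2. Without overlap 0 of the 15 lay lower and 2 higher in SAKI mice. Ccn1 (Cyr61 in the files), a matricellular gene induced by serum and YAP, was at 71.4, 77.7 and 51.0 CPM in SAKI mice, against 415, 51.1 and 482 CPM in WT mice. WT 2 thus lay within the range of the SAKI mice for Ccn1 (log2 fold change -2.24, adjusted p = 0.209 from edgeR), which also had the lowest value in the list. Ccn2 (Ctgf in the files), of the same family and also a YAP target, had a log2 fold change of 0.30, Spp1, which encodes osteopontin, of 0.80 and Smoc1 of -0.42. Of 10 genes for receptors of thrombospondins and tenascins 6 were below 0 (9 against WT 2 alone), with a median of -0.05. Without overlap 3 (30%) lay lower and 0 higher in SAKI mice, where 12.4% of all genes lay lower. Sdc4, the syndecan 4 gene, was at 68.6, 81.6 and 78.3 CPM in SAKI mice, against 255, 82.9 and 583 CPM in WT mice, so that WT 2 was again next to the SAKI mice. Itgb1 had a log2 fold change of -0.34, Lrp1 of -0.25 and Itga9 of 0.22.

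Genes around Has1, for making, binding and clearing hyaluronan, were divided, with 7 of 15 below 0 (8 against WT 2 alone) and a median of 0.05. Without overlap 2 of them lay lower and 2 higher in SAKI mice, where 12.4% of all genes lay lower. Ugdh, which makes the UDP-glucuronate used for hyaluronan, was at 78.1, 78.1 and 88.2 CPM in SAKI mice, against 153, 117 and 352 CPM in WT mice (log2 fold change -1.35, adjusted p = 0.188 from edgeR). Vcan, the hyaluronan-binding proteoglycan versican, had a log2 fold change of -0.68 and Uap1, which makes another sugar donor, of -0.41. Stab2, a clearance receptor for hyaluronan, lay on the other side at 1.08 (adjusted p = 0.17 from edgeR). Of the EGF family around Hbegf 7 of 11 were below 0 (6 against WT 2 alone), with a median of -0.08, and 1 lay lower and 1 higher without overlap. The ligand gene Btc had a log2 fold change of -0.56, the receptor genes Egfr of -0.53, Erbb2 of -0.47 and Erbb3 of 0.51.

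The wound response and immediate early lists had the lowest medians among the lists of more than 10 genes. Both lists were chosen with earlier results of these data known, so their values describe these libraries and test nothing. Of 44 other genes of the wound response 37 were below 0 (29 against WT 2 alone), with a median log2 fold change of -0.59, and 9 of them (20.5%) did not overlap between the groups, where 12.4% of all genes lay lower without overlap. Its 4 genes of smallest p were the monocyte chemokine genes Ccl7 with -3.71 and Ccl2 with -2.18, the tubulin gene Tubb6 with -1.35 and Angptl4, an inhibitor of lipoprotein lipase, with -0.79 (adjusted p of 0.148 to 0.188 from edgeR). Ccl2 was at 1.56, 1.81 and 2.79 CPM in SAKI mice, against 4.91, 6.29 and 17.1 CPM in WT mice. Of 21 immediate early genes 18 were below 0 (17 against WT 2 alone), with a median of -0.70, and 7 (33.3%) did not overlap. Jun was at 58.0, 52.3 and 53.9 CPM in SAKI mice, against 120, 69.3 and 148 CPM in WT mice, and Maff, a small MAF factor gene, at 9.65, 10.5 and 11.5 CPM in SAKI mice, against 31.2, 12.6 and 59.4 CPM in WT mice. Ier3 had a log2 fold change of -1.27. Without WT 2, the test called 20 of the wound response genes lower and 2 higher in SAKI mice, and 6 immediate early genes lower and 1 higher, but it then called 16.6% of all genes (9.14% lower and 7.41% higher). That fit also called 10 of 12 fibroblast and progenitor markers and 9 of 10 macrophage markers higher, and 0 of either lower.

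The regulators YAP and p53 are known inducers of some of the 7 genes. YAP targets had 13 of 20 below 0 (15 against WT 2 alone) and a median of -0.12. Without overlap 5 (25%) lay lower and 3 higher in SAKI mice, where 12.4% of all genes lay lower. In that list Fjx1 had a log2 fold change of -2.28, Amotl2, which feeds back on YAP, of -0.82 and F3, the tissue factor gene, of -0.79, whereas Nt5e, the ecto-5′-nucleotidase gene, stood at 0.73. Targets of p53 had 10 of 15 below 0 and a median of -0.14, with 1 lower and 2 higher in SAKI mice without overlap. The count below 0 was 6 without WT 3 and 4 against WT 2 alone, so it depended on the WT libraries. Phlda3, an inhibitor of AKT, was at 53.6, 55.3 and 39.9 CPM in SAKI mice, against 170, 88.2 and 218 CPM in WT mice (log2 fold change -1.68, adjusted p = 0.148 from edgeR). Trp53inp1 at 0.74 and Sesn1 at 0.49 lay higher, and Btg2 was at -0.41.

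**Figure D4:**
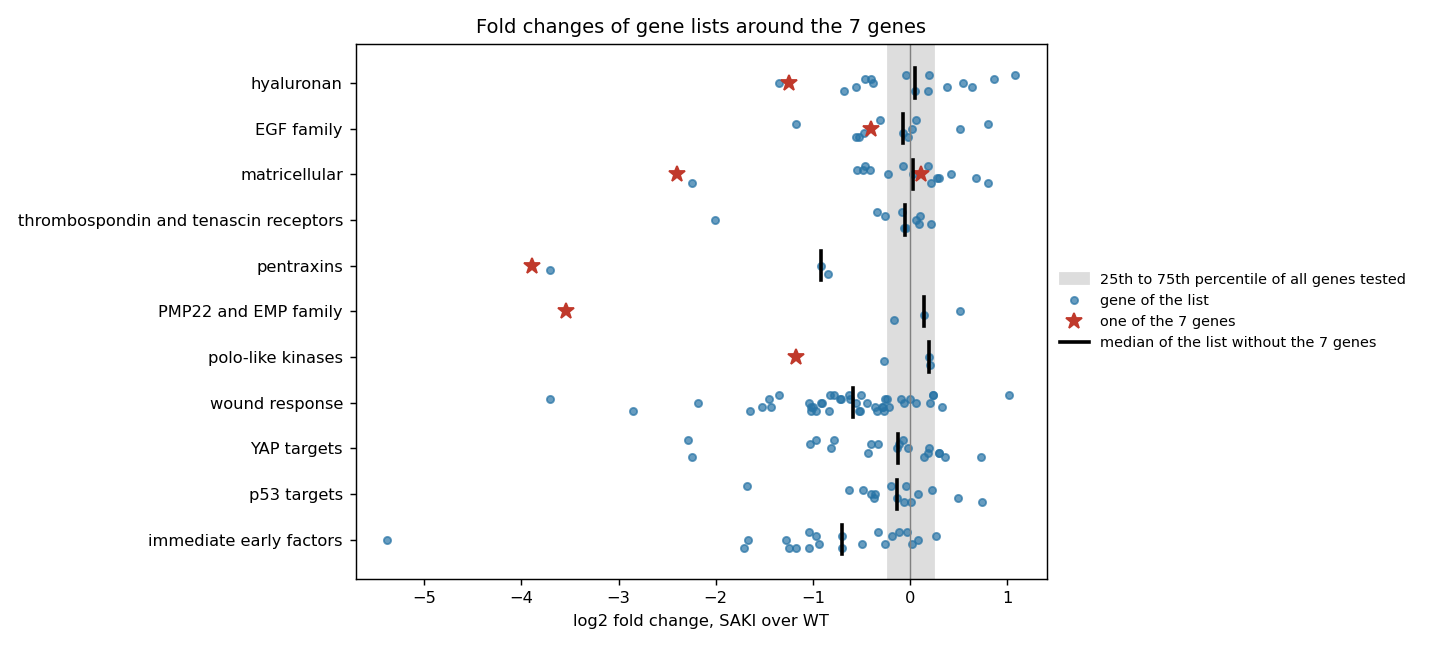
Log2 fold change, SAKI over WT, of each tested gene in 11 lists (blue points), with the 7 genes as red stars, the median of each list without them as a black bar, and the 25th to 75th percentile of all tested genes in grey. All lists were chosen with earlier results of these data known. The wound response and immediate early lists have medians of -0.59 and -0.70, outside the grey band, while the matricellular, hyaluronan and EGF lists have medians of 0.03, 0.05 and -0.08, and the point furthest left is Fosl1, whose fitted value rests on 2 counts in each SAKI library.

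Markers of the stromal cells that can make these genes also varied between the libraries. The 12 fibroblast and progenitor markers summed to 11160 to 12550 CPM in SAKI mice, against 5907, 12350 and 4197 CPM in WT mice, and 10 of 12 had a log2 fold change above 0. The summed level was thus lowest in WT 1 and WT 3, the libraries with most Emp1 and Thbs1. Macrophage markers summed to 2416 to 2905 CPM in SAKI mice, against 1007 to 2358 CPM in WT mice, with 9 of 10 above 0. Endothelial markers summed to 1326 to 1440 CPM in SAKI mice, against 1534 to 1767 CPM in WT mice, with 7 of 10 below 0, and smooth muscle and pericyte markers to 870 to 1092 CPM in SAKI mice, against 1162 to 1280 CPM in WT mice, with 9 of 10 below 0. Mesothelial markers summed to 55.7 to 59.6 CPM in SAKI mice, against 67.6 to 92.0 CPM in WT mice, mostly Cldn15 (45.4 to 51.0 CPM in SAKI mice, against 58.4 to 82.9 CPM in WT mice), and Upk1b, Wt1 and Muc16 had no count in any library. Of the 4 mesothelial markers tested, 2 were below 0 and 2 above. Gpm6a lay higher in SAKI mice without overlap (5.27 to 6.66 CPM, against 3.21 to 5.12 CPM in WT mice). Neutrophil markers summed to 67.5 to 69.2 CPM in SAKI mice, against 21.2 to 51.2 CPM in WT mice, with 9 of 9 tested above 0. The part of these cell types, of the mitochondrial share and of the immediate early genes in the values of the 7 genes was not tested.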

How the data were processed

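Total RNA of IngWAT from 3 SAKI and 3 WT mice was enriched for mRNA and sequenced, 1 library per mouse. The authors deposited 1 table of raw counts per library and 1 table of FPKM values, which scale counts to gene length and depth. Per the labels, the submitters' processing used StringTie 1.3.0, HISAT2 2.0.4 and Bowtie2 2.2.6 with build GRCm38. How reads were counted, and with which strand setting, is not given in the sources used here. Genes that overlap Ptx3, Thbs1 and Tnc on the other strand held at most 1 count in any library.

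The counts were fitted in edgeR 4.0.16 (R 4.3.3) after filterByExpr (minimum count 10, total 15), TMM, a genotype model and the quasi-likelihood test, with Benjamini-Hochberg adjusted p under 0.05 over all 15400 genes. Gene positions are from GENCODE for GRCm38, and upstream sequences from RefSeq GRCm38.p6. The 7 genes and the 22 lists (296 symbols, all found) were chosen with earlier results of these data known. Named were the 7 genes, the 10 closest to Emp1 (predicted genes left out), and up to 4 genes of smallest p with a mean of at least 1 CPM in each of the 11 gene lists, and the other 11 lists held cell type markers. Summed markers of B cells, epithelium, Schwann cells and skeletal muscle were 1278 to 1525, 11.2 to 17.8, 294 to 377 and 419 to 2918 CPM in SAKI mice, and 933 to 1508, 7.59 to 23.4, 199 to 259 and 547 to 5972 CPM in WT mice. As alternatives, scaling by upper quartile or RLE, limma-voom, DESeq2 1.42.0 and limma on log2(FPKM + 1) or log2(FPKM + 0.1) (limma 3.58.1), other filters, the replicate number as a block and each library left out in turn were run. The steps were tested on simulated counts. The labels name separate mice but no batch or date. Each edgeR p-value sets the difference between the groups against the spread between these mice, which is estimated with information from all genes.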

Additional observations from a re-analysis of the deposited data

How the results depend on the processing

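Emp1, Ptx3, Thbs1 and Plk2 had a log2 fold change below 0 under all 17 alternatives. For these picked genes the sign follows from the pick, since their groups did not overlap, so it tests nothing and only its size could change. Has1 and Hbegf were also below 0 where they could be fitted. Tnc, Has1 and Hbegf passed the test under none of the alternatives. Has1 had no value with a mean of at least 5 CPM or in the filtered FPKM fits, and Hbegf none with a mean of at least 5 CPM. The 5 genes called of all tested became 702 with DESeq2, 8 with no filter on low counts, 9 with log2(FPKM + 1), 9 with log2(FPKM + 0.1) and 1 to 2598 with 1 library left out, the lowest without SAKI 3 and the highest without WT 2. Without SAKI 1 or SAKI 2 there were 2. With both WT 1 and WT 3 left out, chosen after seeing the data, 76 genes were called, and WT 2 is then assumed to vary like the SAKI mice. In that comparison Emp1 was at -2.59, Ptx3 at -2.51, Thbs1 at -0.88 and Plk2 at -0.89. Ptx3 ranged from -4.32 to -2.70 with 1 library left out and was at -2.21 with log2(FPKM + 1), filtered or not, a scale that shrinks low values. Tnc ranged from -0.046 to 0.22 with 1 library left out, below 0 only without WT 2. With the replicate number as a block 1 gene was called, and Emp1 was at -3.45. The deviations of same-numbered mice correlated at 0.036, 0.042 and 0.089, and no mouse correlated best with the mouse of its own number. With 3 mice per group these correlations cannot decide whether same-numbered mice shared a litter or batch, and the labels name none. The cause of these shifts was not tested. Genes at a few counts, such as Has1, limit what can be seen at this depth.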
